A study of Mus musculus with 6 samples.

Results

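The interferon-induced genes are 36 mouse genes, chosen by name as genes that type I interferons, type II interferon or both switch on. Of these, 32 had a row among the 16331 gene probe sets tested. Isg15, Ifit3, Oas1a and Ddx58 had no matching row and were not analysed here. Biotin-labelled cRNA, prepared by the Affymetrix protocol, was hybridised to arrays for liver RNA of 3 Ugcg-deficient mouse samples (KO 427, KO 429 and KO 431) and 3 wildtype mouse samples (WT 426, WT 428 and WT 430). The Ugcg enzyme, glucosylceramide synthase, starts the synthesis of most glycosphingolipids, and the comparison asks what its loss changes in liver. No source used here gives how Ugcg was inactivated, which cells lost it, or the strain and age of the animals. Whether the 3 samples of a genotype are 3 animals is not labelled, and the p-values therefore rest on a spread that may be technical.

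Type I interferons (interferon alpha and beta) bind the receptor of Ifnar1 and Ifnar2 and activate a complex that contains Stat2 and Irf9 and binds paired GAAA repeats, the interferon-stimulated response element. Type II interferon (interferon gamma), made mostly by T and NK cells, binds the receptor of Ifngr1 and Ifngr2 and acts through a promoter element named the gamma-activated sequence. In liver both hepatocytes and immune cells respond, and the induced proteins block viral replication, present peptides and attract lymphocytes. Of the 32 measured genes, 20 were classed as type I genes and 12 as type II genes after the interferon best known for inducing them; many, such as Cxcl10, Irf1 and Tap1, respond to both.

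Promoter windows of 5 of the described genes are given as examples. They come from RefSeq with the build GRCm38.p6 and run from 250 bases before to 50 bases after the start, 5′ to 3′ along the gene. Capitals mark 2 motifs searched on both strands, a repeat of GAAA, any 2 bases and GAAA (the core of the response element, read as TTTC repeats on the other strand) and TTCNNNGAA (the gamma-activated sequence). Ifit1 (type I) has 2 GAAA repeats and Igtp (type II) has both motifs, more than most windows of their classes hold. Bst2 has both motifs overlapping, the Irf1 window shown has only the second, and Oasl1 has neither. Another Irf1 window, not shown, has neither motif.
Ifit1, chr19:34640639-34640938, plus strand: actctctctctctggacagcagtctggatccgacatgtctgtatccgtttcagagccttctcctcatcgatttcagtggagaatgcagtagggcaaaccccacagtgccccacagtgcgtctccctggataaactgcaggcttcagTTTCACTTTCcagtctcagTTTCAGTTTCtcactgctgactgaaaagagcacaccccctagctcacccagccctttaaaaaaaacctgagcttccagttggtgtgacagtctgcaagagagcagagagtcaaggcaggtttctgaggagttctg
Bst2, chr8:71537423-71537722, minus strand: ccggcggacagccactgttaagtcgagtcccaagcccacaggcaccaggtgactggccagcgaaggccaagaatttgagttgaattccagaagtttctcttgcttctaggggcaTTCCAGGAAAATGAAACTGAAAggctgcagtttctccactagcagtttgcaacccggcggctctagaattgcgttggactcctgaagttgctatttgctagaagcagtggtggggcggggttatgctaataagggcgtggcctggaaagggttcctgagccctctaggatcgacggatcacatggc
Igtp, chr11:58199306-58199605, plus strand: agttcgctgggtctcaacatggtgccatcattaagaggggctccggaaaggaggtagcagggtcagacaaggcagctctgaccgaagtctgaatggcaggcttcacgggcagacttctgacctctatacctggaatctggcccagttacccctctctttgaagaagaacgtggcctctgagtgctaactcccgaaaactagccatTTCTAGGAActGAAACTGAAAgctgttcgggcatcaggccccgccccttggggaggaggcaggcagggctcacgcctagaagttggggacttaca
Irf1, chr11:53769764-53770063, plus strand: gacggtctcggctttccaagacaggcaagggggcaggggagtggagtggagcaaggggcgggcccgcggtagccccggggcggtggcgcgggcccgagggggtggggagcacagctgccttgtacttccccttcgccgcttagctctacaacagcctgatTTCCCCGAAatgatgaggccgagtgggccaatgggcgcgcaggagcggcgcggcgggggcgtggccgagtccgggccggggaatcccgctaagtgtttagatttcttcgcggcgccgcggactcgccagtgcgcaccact
Oasl1, chr5:114922990-114923289, plus strand: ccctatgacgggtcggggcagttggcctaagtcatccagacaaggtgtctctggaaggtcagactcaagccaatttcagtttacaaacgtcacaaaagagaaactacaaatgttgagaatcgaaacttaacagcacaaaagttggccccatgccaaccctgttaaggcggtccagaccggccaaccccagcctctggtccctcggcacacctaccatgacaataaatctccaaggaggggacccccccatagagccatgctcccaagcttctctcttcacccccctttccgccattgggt

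RefSeq windows were found for 29 of the 36 genes, with 36 windows in all. The GAAA repeat was in 16 of these 36 windows (44.4%, unmeasured genes included), against 3.44% of all 32851 windows. Among the genes measured here it was in 6 of 19 windows of type I genes (31.6%) and in 6 of 13 windows of type II genes (46.2%). The 4 type I genes without a row, Isg15, Ifit3, Oas1a and Ddx58, each have 1 window and each holds the repeat. TTCNNNGAA was in 9 of the 36 windows (25%), against 8.30% of all windows, and among measured genes in 4 of 19 windows of type I genes and in 4 of 13 of type II genes. A match describes the letters and does not show binding.

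No interferon-induced gene differed between Ugcg-deficient and wildtype livers past the threshold, an adjusted p under 0.05 in limma's moderated test, adjusted by Benjamini-Hochberg across every probe set tested. The background is 0.0245% of the 16331 probe sets past that threshold. At an unadjusted p under 0.05 there was 1 of the 32, Oasl1, against 4.99% of all probe sets. Oasl1 was also the 1 gene whose KO arrays all lay above the WT arrays, against 5.10% of all probe sets, and 0 genes had all KO arrays below the WT arrays, against 4.47%. All differences are KO minus WT on the log2 scale of the deposited values. The mean was higher on the KO arrays for 20 of the 32 genes (62.5%, against 52.6% of all probe sets) and lower for 12. The median difference was 0.0394, against 0.00586 over all probe sets. For 24 of the 32 genes the difference was smaller than the gene's own SD within a genotype, as it was for 71.1% of all probe sets.

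**Figure D1:**
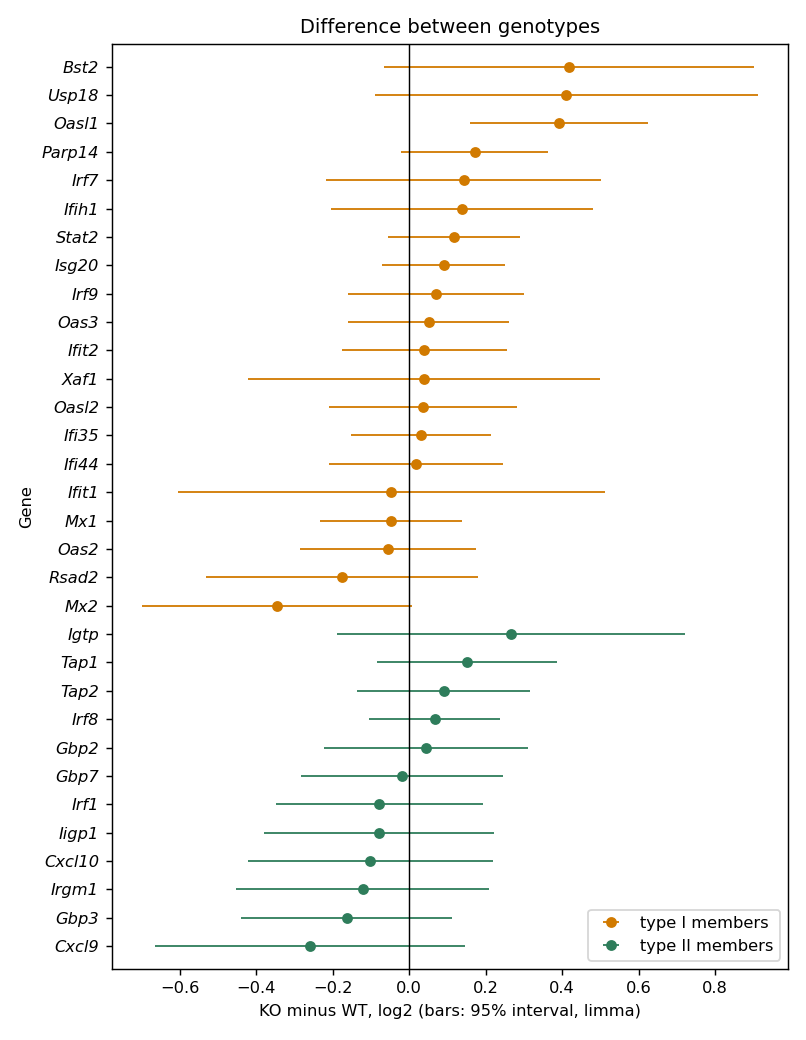
Difference between genotypes (KO minus WT, log2, horizontal axis) for the 32 measured genes, with points for the estimate and bars for the 95% interval from limma. The interval of Oasl1 (0.160 to 0.624) is the 1 interval that does not reach 0, and type I genes (top) spread from -0.34 for Mx2 to 0.42 for Bst2.

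Among the transcription factors that carry the interferon signal, the means of Irf7, Irf9, Stat2 and Irf8 were slightly higher and that of Irf1 slightly lower on the KO arrays. Irf7, the factor that amplifies type I interferon production, read 7.71, 8.18 and 7.90 on the KO arrays and 7.78, 8.08 and 7.50 on the WT arrays. The 2 genotypes overlapped, and the difference was 0.14 (SE 0.159, limma adjusted p = 0.986). Irf1, which interferon gamma induces, read 8.40, 8.54 and 8.43 on the KO arrays, against 8.56, 8.78 and 8.28 on the WT arrays. WT 428 was the highest and WT 430 the lowest of the 6 arrays, so the WT values enclosed the KO values (difference -0.08, SE 0.120, adjusted p = 0.987). Stat2 averaged 7.48 ± 0.06 on the KO and 7.36 ± 0.09 on the WT arrays, and Irf9, its partner in the type I complex, 7.82 ± 0.11 on the KO and 7.75 ± 0.17 on the WT arrays (SD, n = 3 each). Irf8, a factor of macrophage and dendritic cell development, averaged 6.97 ± 0.09 on the KO and 6.91 ± 0.06 on the WT arrays (SD, n = 3 each).

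Usp18 removes the ubiquitin-like protein Isg15 from its targets and damps signalling at the type I receptor. It read 7.39, 8.09 and 7.70 on the KO arrays and 7.16, 7.79 and 7.00 on the WT arrays. Its mean was higher on the KO arrays by 0.41 (1.33-fold, SE 0.221, 95% interval -0.0899 to 0.911). However, WT 428 lay above 2 of the KO arrays and the test did not pass (limma adjusted p = 0.982).

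The oligoadenylate synthetases make the short 2′-5′-linked RNA that activates RNase L, while their relative Oasl1 lacks that activity and is known to restrain the translation of Irf7. Oasl1 (Entrez gene 231655) read 7.79, 7.91 and 8.14 on the KO arrays and 7.59, 7.63 and 7.44 on the WT arrays. Every KO array lay above every WT array, with a gap of 0.152 between KO 427 and WT 428. The means were 7.95 ± 0.18 for KO and 7.55 ± 0.10 for WT (SD, n = 3 each), a difference of 0.39 or 1.31-fold (SE 0.102, unadjusted p = 0.00417, limma adjusted p = 0.864). Its rank by p among all probe sets was 77. Over 12 refits the difference of Oasl1 ran from 0.293 to 0.472 and its limma adjusted p from 0.397 to 1.0. Its neighbour and paralog Oasl2 averaged 6.77 ± 0.13 on the KO and 6.74 ± 0.18 on the WT arrays (SD, n = 3 each). Oas3 had a difference of 0.05 and Oas2 one of -0.06.

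Of the antiviral effectors, Bst2 and Mx2 had the largest differences, in opposite directions. Bst2 encodes tetherin, which holds budding virions at the cell surface. It read 10.44, 9.82 and 10.14 on the KO arrays, against 9.70, 10.15 and 9.30 on the WT arrays. KO 427 was the highest and WT 430 the lowest, and KO 429 and KO 431 both lay below WT 428. The difference was 0.42 (1.34-fold, SE 0.213, limma adjusted p = 0.982), and it was 0.0566 without both KO 427 and WT 430. Mx2 belongs to the Mx family of dynamin-like GTPases; RefSeq lists the Mx1 and Mx2 loci of the reference strain as transcribed pseudogenes. It read 6.71, 6.95 and 6.77 on the KO arrays, against 6.76, 7.35 and 7.36 on the WT arrays. WT 426 lay among the KO arrays and the other WT arrays above them, and the difference was -0.34 (SE 0.156, limma adjusted p = 0.982). Mx1 averaged 6.16 ± 0.10 on the KO and 6.21 ± 0.08 on the WT arrays (SD, n = 3 each).

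Ifit1, which binds viral RNA that lacks host cap methylation, read 6.73, 7.19 and 6.84 on the KO arrays and 6.65, 7.62 and 6.63 on the WT arrays. WT 428 was the highest and the other WT arrays the lowest, so the spread within WT (SD 0.56, n = 3) was far above the difference of -0.05 (SE 0.246, limma adjusted p = 0.996). Rsad2, which makes a chain-terminating nucleotide, had a difference of -0.18 (SE 0.157), and the exonuclease gene Isg20 one of 0.09 (SE 0.0711). Ifit2, a relative of Ifit1, had a difference of 0.04 (SE 0.0950). Ifih1, the cytosolic sensor of long double-stranded RNA, read 8.71, 9.07 and 8.84 on the KO arrays and 8.63, 9.07 and 8.50 on the WT arrays. KO 429 and WT 428 were the high arrays in each genotype, and the difference was 0.14 (SE 0.151, limma adjusted p = 0.986).

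Parp14, an ADP-ribosyltransferase, read 7.81, 7.93 and 7.65 on the KO arrays and 7.62, 7.66 and 7.60 on the WT arrays. KO 431 lay within the narrow WT range and the other KO arrays above it (difference 0.17, SE 0.0846, limma adjusted p = 0.982). Ifi35, which pairs with the protein Nmi, read 9.05, 8.90 and 8.84 on the KO arrays and 8.84, 8.97 and 8.89 on the WT arrays. These ranges overlapped almost completely, with a difference of 0.03 (SE 0.0804). Xaf1, a proapoptotic antagonist of Xiap, had a difference of 0.04 (SE 0.203), and Ifi44 one of 0.02 (SE 0.0998).

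**Figure D2:**
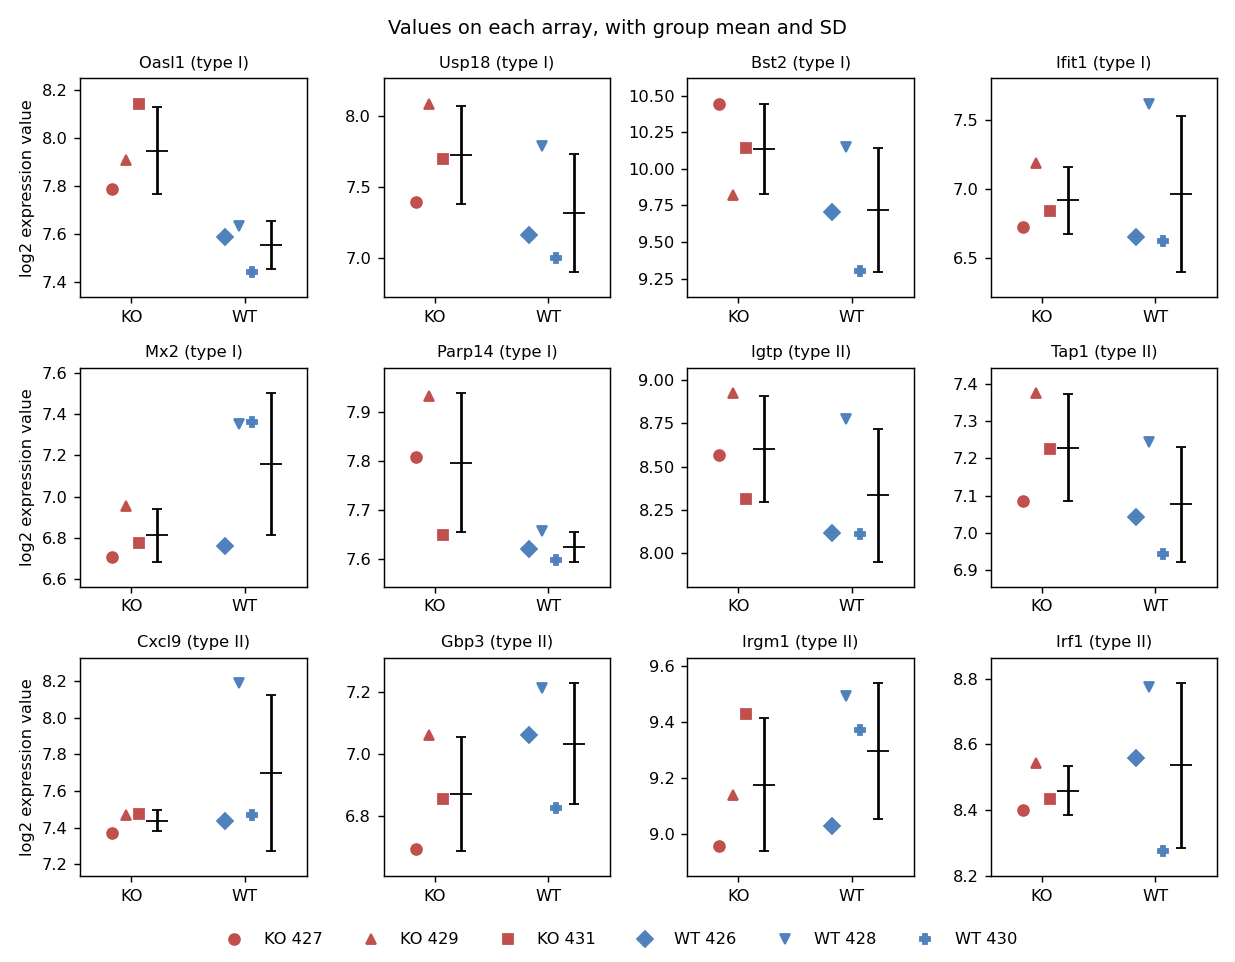
Log2 expression values (vertical axis, own scale for each gene) on the 3 KO arrays (left, red) and 3 WT arrays (right, blue) for 12 genes, with black bars for the group mean and SD. The KO arrays of Oasl1, from 7.79 to 8.14, all lie above its WT arrays, and in the other 11 genes the genotypes overlap; WT 428 stands above all other arrays for Ifit1 (7.62) and Cxcl9 (8.19).

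Among the type II genes, the immunity GTPases gave differences in both directions, and none passed. These proteins, the guanylate-binding proteins and the immunity-related GTPases, attack the vacuoles in which parasites and bacteria live. Igtp read 8.56, 8.92 and 8.31 on the KO arrays, against 8.12, 8.78 and 8.11 on the WT arrays. WT 428 lay between the KO arrays, and the difference was 0.27 (SE 0.201, limma adjusted p = 0.982). Irgm1, which regulates the other members of its family, read 8.96, 9.14 and 9.43 on the KO arrays, against 9.03, 9.49 and 9.37 on the WT arrays. The genotypes overlapped, with KO 427 lowest and WT 428 highest (difference -0.12, SE 0.146, adjusted p = 0.986). Iigp1, an effector of the same family, read 11.94, 11.68 and 11.42 on the KO arrays, against 11.64, 11.94 and 11.71 on the WT arrays. KO 431 was the lowest array, and the difference was -0.08 (SE 0.133, adjusted p = 0.991). Gbp3 read 6.70, 7.06 and 6.86 on the KO arrays and 7.06, 7.21 and 6.83 on the WT arrays, overlapping with a difference of -0.16 (SE 0.122, adjusted p = 0.982). Gbp2 and Gbp7 had differences of 0.04 and -0.02.

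Tap1 and Tap2 form the transporter that carries peptides into the endoplasmic reticulum for loading on class I histocompatibility molecules. Tap1 read 7.09, 7.37 and 7.23 on the KO arrays and 7.04, 7.25 and 6.94 on the WT arrays. WT 428 lay above 2 of the KO arrays (difference 0.15, SE 0.103, limma adjusted p = 0.982). Tap2 read 7.31, 7.23 and 7.39 on the KO arrays and 7.01, 7.32 and 7.32 on the WT arrays. WT 426 was the low array, and the difference was 0.09 (SE 0.0999, adjusted p = 0.986).

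The chemokines Cxcl9 and Cxcl10, neighbours on the chromosome, attract T and NK cells through Cxcr3. Cxcl9 read 7.37, 7.47 and 7.47 on the KO arrays, against 7.44, 8.19 and 7.47 on the WT arrays. WT 428 stood alone, and the other 5 arrays lay within a range of 0.101. The difference was -0.26 with all arrays (SE 0.178, limma adjusted p = 0.982) and -0.0129 without WT 428. Cxcl10 read 6.77, 6.60 and 6.52 on the KO arrays, against 6.52, 7.07 and 6.60 on the WT arrays. Again WT 428 was highest (difference -0.10, SE 0.141, limma adjusted p = 0.987), and without WT 428 the Cxcl10 difference was 0.0695.

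Type I and type II genes were then set side by side. Of the 20 type I genes, 15 had a higher and 5 a lower mean on the KO arrays, with a median difference of 0.0452. Of the 12 type II genes, 5 had a higher and 7 a lower mean, with a median of -0.0479. The SD of the per-array class medians within a genotype was 0.133 for type I and 0.149 for type II genes, above both medians. Leaving out 1 array moved the type I median over a range of -0.000651 (without KO 429) to 0.135 (without WT 428). The type II median ran from -0.0820 without KO 429 to 0.0688 without WT 428, and it was also above 0 without KO 431 (0.0501). Without the 10 genes known to respond to both interferons, the medians were 0.0397 over 15 type I genes and -0.0794 over 7 type II genes. No test was made of the difference between the classes.

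**Figure D3:**
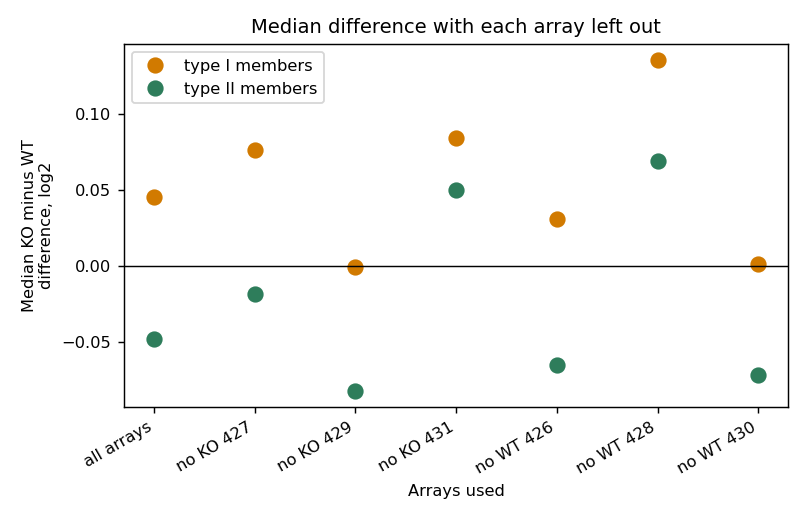
Median KO minus WT difference (log2, vertical axis) over the 20 type I (orange) and 12 type II genes (green), with all arrays and with each array left out. The type II median lies below 0 with all arrays (-0.0479) and above 0 without KO 431 (0.0501) or WT 428 (0.0688); the type I median is -0.000651 without KO 429 and 0.00106 without WT 430.

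Within a genotype the SD of the per-array medians over the 32 genes was 0.143, larger than the median difference of 0.0394 between genotypes. Across the 6 arrays the median SD of the 32 genes was 0.167, against 0.105 over all probe sets and 0.117 over the 9798 probe sets above the 40th percentile of the mean, which 28 of the 32 genes passed. The high arrays were WT 428 and KO 429, and the low ones WT 430 and WT 426. WT 428 was above the gene's own 6-array mean for 27 of the 32 genes, against 51.6% of all probe sets, and for all 12 type II genes. KO 429 was above it for 22 of the 32 genes, against 52.5%, with 15 of 20 type I (75%) and 7 of 12 type II genes (58.3%). KO 429 was the highest array for 14 of the 32 genes (19.1% of all probe sets), and WT 430 the lowest for 17 (18.3% of all probe sets). Over the type I genes, the median deviation from the 6-array mean was 0.146 on KO 429 and 0.145 on WT 428. It was -0.159 on WT 430, -0.0875 on WT 426, -0.0470 on KO 427 and -0.00598 on KO 431. For the type II genes it was 0.0772 on KO 429 and 0.236 on WT 428. It was -0.0928 on WT 430, -0.0955 on WT 426, -0.0610 on KO 427 and -0.0953 on KO 431. Over all probe sets the same median lay between -0.00806 and 0.00716 on every array.

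**Figure D4:**
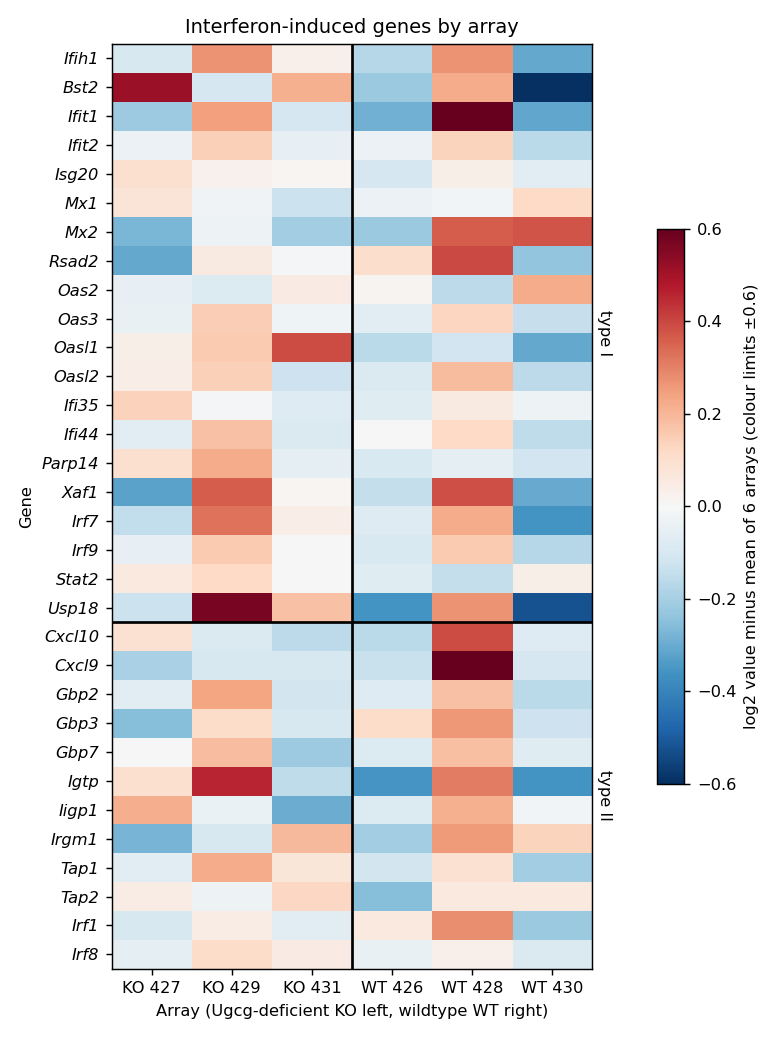
Heat map of the 32 genes (rows, type I above and type II below the line) on the KO arrays (left) and WT arrays (right), coloured by the log2 value minus the gene's mean over 6 arrays, with colours capped at 0.6 to either side. The red column WT 428 and the blue columns WT 430 and WT 426 run through most genes of both classes. Mx2, Oas2 and Mx1 are instead highest on WT 430. KO 429 is above the mean for 15 of 20 type I and 7 of 12 type II genes.

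**Figure D5:**
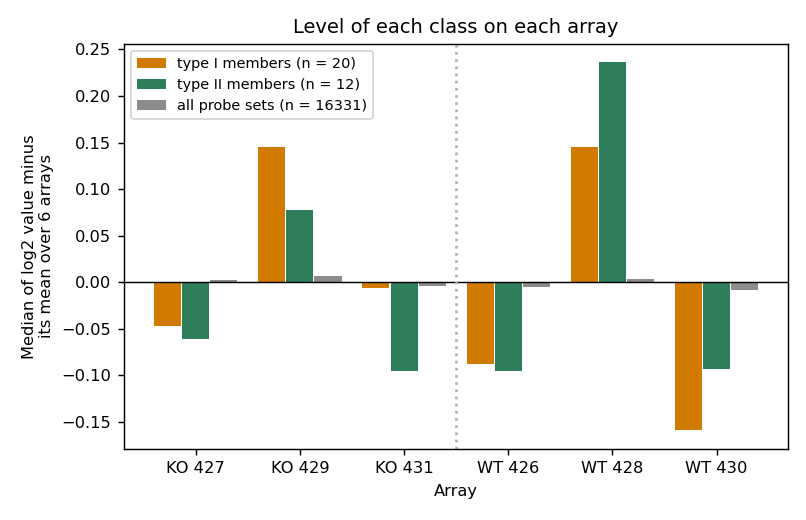
Median over genes of the log2 value minus its mean over the 6 arrays (vertical axis) for each array, for 20 type I genes (orange), 12 type II genes (green) and all 16331 probe sets (grey). Both classes are highest on WT 428 or KO 429 (0.0772 to 0.236), while all probe sets stay between -0.00806 and 0.00716.

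The same arrays were high and low for genes of class I antigen presentation outside the list. Of the 8 measured, 8 were above their own mean on WT 428, 7 on KO 429 and 0 on WT 430. Tapbp, which encodes the tapasin that links the peptide transporter to class I molecules, read 9.16, 9.05 and 9.17 on the KO arrays and 8.91, 8.99 and 8.60 on the WT arrays. These groups did not overlap, and the difference of 0.29 (SE 0.105, unadjusted p = 0.0223) did not pass after adjustment (limma adjusted p = 0.951). Of 48 measured pathway genes, these 8 included, 1 (Tapbp) had all KO arrays above the WT arrays, against 5.10% of all probe sets. At an unadjusted p under 0.05 in limma there were 2 of the 48, against 4.99% of all probe sets. The immunoproteasome gene Psmb8 had a difference of 0.18 (adjusted p = 0.982).

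Besides the 8 antigen presentation genes, the 48 measured pathway genes (62 were listed) cover ligands, receptors, signalling factors, sensors and negative regulators. Of all 48, 0 passed the threshold, and 29 had a higher mean on the KO arrays (60.4%, against 52.6% of all probe sets). The mean was lower for 19, and the median difference was 0.0249. The 7 measured ligand genes, 0 of which lay above the 40th percentile of the mean, included interferon gamma (Ifng), at 5.79, 5.78 and 5.81 on the KO and 5.81, 5.87 and 5.86 on the WT arrays. Those KO arrays all lay below the WT arrays, by a gap of 0.00391, and the difference was -0.05 (SE 0.0647, limma adjusted p = 0.986). Such a separation was seen in 1 of the 48 pathway genes, against 4.47% of all probe sets. Interferon beta (Ifnb1) had a difference of 0.07 (SE 0.0962). Among ligand genes the smallest p-values belonged to Ifna5 (0.09) and Ifna4 (-0.07). Of the 6 receptor genes, 3 had a higher and 3 a lower mean, with differences from -0.03 (Ifnar2) to 0.08 (Ifnar1), both chains of the type I receptor. Irf2, a repressor of many Irf1 targets, read 7.85, 7.49 and 7.79 on the KO arrays and 8.07, 8.17 and 7.82 on the WT arrays. KO 427 lay just above WT 430, and the difference was -0.31 (SE 0.120, unadjusted p = 0.0305, limma adjusted p = 0.956). Irf5, a factor of inflammatory macrophages, had a difference of 0.30 (adjusted p = 0.982). Of the sensors and adaptors, 10 of 12 had a higher mean (52.6% of all probe sets), with 0.17 for Tlr9 and 0.13 for Tlr7. KO 427 was the highest array for 6 of these 12 (50%, against 19.9% of all probe sets). The sign turned for 7 of the 12 when 1 array was left out (58.3%, against 48.4% of all probe sets). Of the 12, 7 lay above the 40th percentile, Tlr7 not among them. Of the negative regulators 4 of 7 had a higher mean, with 0.16 for the phosphatase gene Ptpn1 and -0.24 for Socs3, the feedback inhibitor of cytokine receptors.

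In bulk liver RNA, fewer cells of a type and less RNA per cell cannot be told apart. Array medians lay between 6.79 and 6.81. Hepatocyte markers (7 of 8 measured) averaged 13.92 to 13.98 on the KO and 13.89 to 13.90 on the WT arrays. The group mean was higher on the KO arrays for 4 of these 7 and lower for 3, and 0 passed the threshold. Their median difference was 0.00651 and the largest 0.43. Of the 7, 1 had all KO arrays above the WT arrays, against 5.10% of all probe sets. All KO arrays lay below the WT arrays for 1, against 4.47% of all probe sets. At an unadjusted p under 0.05 in limma there was 1 of the 7, against 4.99% of all probe sets. Of 14 Kupffer cell and macrophage markers all were measured, and their mean level was 8.11 to 8.75 on the KO and 8.47 to 8.62 on the WT arrays, highest on KO 429 and lowest on KO 431. The group mean was lower on the KO arrays for 12 of these 14 markers and higher for 2 (14.3%, against 52.6% of all probe sets), and 0 passed the threshold. Leaving out 1 array turned the sign for 12 of the 14 (85.7%, against 48.4% of all probe sets). KO 431 was the lowest array for 12 of the 14. On KO 429, 14 of 14 lay above their own 6-array mean, by 0.272 on average. On WT 428, the other high array for interferon-induced genes, 8 of 14 did, with an average of -0.00246. Of the low arrays for interferon-induced genes, 13 of 14 did on WT 426 and 8 of 14 on WT 430. The averages there were 0.150 on WT 426 and 0.00186 on WT 430. Of 13 T, B and NK cell markers 12 were measured, and 1 of the 12 lay above the 40th percentile of the mean. The 12 markers averaged 6.23 to 6.30 on the KO and 6.21 to 6.32 on the WT arrays. Their average deviation from the 6-array mean was 0.0421 on KO 429 and -0.00418 on WT 428. On KO 429, however, 5 of 12 lay above their own mean, and the median deviation was -0.0235. On WT 428, 4 of 12 did, with a median of -0.00399. For neutrophil markers (5 of 7 measured) the KO arrays spread from 6.49 to 7.08, with KO 431 highest, and the WT arrays from 6.61 to 6.64. Dendritic cell markers (7 of 8 measured) averaged 6.36 to 6.47 on the KO and 6.42 to 6.45 on the WT arrays, with 3 of 7 above their own mean on KO 429 and 5 of 7 on WT 428. WT 430 also carried exocrine pancreas transcripts, at a list mean of 9.52 against 6.56 to 6.79 on the other 5 arrays. WT 430 and WT 426 were the low arrays for interferon-induced genes, and on WT 426 this list mean was 6.68. KO 427 was the highest array for 5 of 6 skeletal muscle genes, with Acta1 at 8.48 against 6.28 to 6.63 on the other arrays. The adipose genes Adipoq and Cfd were highest on KO 431, at 6.92 and 7.70. The part of these markers in the differences above was not tested. Ugcg itself averaged 6.83 ± 0.25 on the KO and 6.84 ± 0.03 on the WT arrays (SD, n = 3 each), and with the deleted exons and probe positions unknown here these values are no check on the genotypes.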

How the data were processed

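The authors deposited 1 table of log2 expression values, 1 per gene probe set and array; the base is read from the values, which run from 5.38 to 14.69. Per the labels, biotin-labelled cRNA was made by the Affymetrix protocol; no source used here names the array model, normalization or software. No further normalization was applied. From 16395 probe sets, 64 controls were left out. Row names are Entrez gene numbers followed by _at, as for all 15644 annotated rows; 473 unannotated rows, among them that of Ifi44, were named through that number in the RefSeq gene table (GRCm38.p6). No probe sequences were used, so signal shared by close paralogs (Ifit, Oas, Gbp and Mx families) cannot be told apart.

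KO and WT were compared with limma 3.58.1 in R 4.3.3 (lmFit, eBayes, two-sided, 4 residual and 4.85 prior degrees of freedom), with Benjamini-Hochberg adjustment over 16331 probe sets; the fit was tested on simulated data. With 3 against 3 arrays, an exact permutation test cannot go below p = 0.1. The number of arrays limits the precision: the median SE of a difference was 0.0847 over all probe sets and 0.117 over the 32 genes. Genes, classes and lists were chosen with earlier results of these data known. Per-array values are given, in each class, for the 3 genes with the smallest p and the 3 with the largest SD, and for the gene with the highest mean in each role; of each pathway list, up to 2 genes with the smallest p are named. Per-array values of Irf7, Cxcl10, Ifng, Tapbp and Irf2 (the last 2 being the pathway genes with an unadjusted p under 0.05) and the difference of Ifnb1 were added after their values were seen. Alternatives were quantile normalization, median centring, a filter on low values, an intensity trend with robust variance, array weights, leaving out each array or 2 together, and leaving shared genes out of the classes.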

Additional observations from a re-analysis of the deposited data

How the results depend on the processing

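None of the 32 genes passed an adjusted p under 0.05 in limma in any of 12 refits, with 1 to 5 at an unadjusted p under 0.05 and a lowest adjusted p of 0.397, for Oasl1 without both WT 430 and KO 427. Over all probe sets 4 passed, against 8 with array quality weights, 8 without both WT 430 and KO 427, and 0 to 4 when 1 array was left out (0 without any of KO 427, KO 429, KO 431, WT 426 or WT 428). Quantile normalization, median centring, the filter on low values, the intensity trend and array weights turned the sign of 0 of the genes (28 genes under the filter, 32 otherwise). The sign turned for 16 of the 32 when 1 array was omitted (50%, against 48.4% of all probe sets), in 9 genes through WT 430, 6 through KO 429 and 5 through WT 428, some of them shared. The log2 difference of these 16 genes ran from -0.215 to 0.279 for Ifit1, -0.0296 to 0.0788 for Ifi35, -0.0304 to 0.117 for Ifit2, -0.0103 to 0.129 for Oas3, -0.0326 to 0.14 for Oasl2, -0.0649 to 0.0837 for Ifi44, -0.133 to 0.243 for Xaf1 and -0.0634 to 0.142 for Gbp2, and from -0.0991 to 0.00439 for Mx1, -0.116 to 0.086 for Gbp7, -0.208 to 0.0492 for Iigp1, -0.0153 to 0.143 for Tap2, -0.208 to 0.042 for Irf1, -0.208 to 0.0695 for Cxcl10, -0.148 to 0.0435 for Oas2 and -0.00114 to 0.289 for Irf7. Without both WT 430 and KO 427 the sign also turned for 6 genes, with -0.00391 for Ifit2, 0.0542 for Oas2, -0.0425 for Oasl2, -0.0171 for Ifi44, -0.0361 for Ifi35 and 0.0244 for Irgm1; the cause was not tested. Over all probe sets, the median distance from a difference to the end of its 95% interval was about 0.19. The 32 genes varied more, with a median SE of 0.117 against 0.0847 over all probe sets. Differences above 0.19 could therefore also have an interval that includes 0, as for Bst2 (0.42), Usp18 (0.41) and Mx2 (-0.34). No paired analysis was possible because the labels give no number that a KO and a WT array share.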
